A study of Glycine max with 36 samples.

Results

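Soybean genes first described for their transcripts in root nodules were followed in sprayed leaflets: NOD33 (gene ID 547678), ENOD40B (547926) and UR9 (547453), 3 of the 527 genes to which at least 1 probe was assigned alone. Their members were the spotted cDNA probes that the array's annotation assigns to 1 of these genes and to no other gene, which gave 6 of 19200 probes: 3 for NOD33 (Gm00683cDNA18kA, Gm03489cDNA18kA and Gm04997cDNA18kA, called probes 1, 2 and 3), 2 for ENOD40B (Gm00854cDNA18kA and Gm08775cDNA18kA, probes 1 and 2) and 1 for UR9 (Gm04670cDNA18kA). Taking these probes used no measured value, but the genes were chosen with earlier results of these data known. All 6 had a value on each of the 36 arrays and all 6 were among the 17062 probes tested. 1 further probe, annotated to UR9 together with another gene, was not counted.

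Nodulins are plant genes named for transcripts that appear when rhizobia induce root nodules, and many of them are also transcribed in other organs. ENOD40 is an early nodulin whose RNA carries very short reading frames; it is known from nodule primordia and from vascular tissue, and in soybean its peptides bind sucrose synthase. UR9 encodes uricase, the peroxisomal enzyme that oxidises urate on the route to the ureides allantoin and allantoate, the form in which soybean nodules export fixed nitrogen. Atrazine and bentazon both block electron transport at photosystem II.

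The plants were soybean Williams 82 at the V1 stage, about 2 weeks old, grown in a greenhouse at 25 C with a 16 h day, and the 3 leaflets of the first trifoliate leaf were pooled. Leaves were misted with atrazine at 22 to 25 mM, with bentazon at 22 to 25 mM, or with water holding 1% (v/v) of the adjuvant Herbimax, and were taken 1, 2, 4 or 8 h later, which made 12 RNA groups. The labels name the adjuvant for the water spray only, so the herbicide cannot be told apart from a difference in adjuvant. Each array compared 2 groups directly, 12 kinds of array closed 1 loop through all groups, and the loop was hybridised 3 times; the study states that these were 3 biological repeats, without saying whether they were separate sowings or days. Rhizobial inoculation was not mentioned in the sources used here. The deposited tables hold ratios only, so neither the level of a gene in leaf nor leaf identity could be read from them. Markers were counted only among probes annotated to 1 gene alone. Those of the leaf genes CAB3 (6), PSAD (3) and LHCP (1) were all tested, while the leaf genes RBCS and RCA had 0. The leghemoglobin genes (LBA, LBC1, LBC2 and LBC3), NOD26 and NOD20, which would mark nodule tissue, also had 0. Probes annotated to more than 1 gene were not searched for them. Fewer cells of a type and less RNA per cell cannot be told apart in pooled leaflets.

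Values are differences on the log2 scale, a base that was assumed. A positive difference means more of the first-named RNA if the deposited ratio follows the order of the array titles; the labels do not settle that order, and all signs would turn together otherwise. In this order the detoxification-associated transporter gene PDR12 was at 5.86 under bentazon against water at 2 h and the median of 27 glutathione transferase probes was 0.31. Each difference came from 1 linear model of all arrays and is given ± its standard error; a probe was called where the limma adjusted p (Benjamini-Hochberg over the 17062 probes of that comparison) was under 0.05. The value of each replicate is that replicate's own 12 arrays solved alone. No array compared atrazine with water at 1 or 8 h, or bentazon with water at 2 or 4 h. Those differences were linked through other arrays of the loop. Atrazine minus water at 8 h thus reuses the arrays of bentazon against atrazine at 8 h. Replicate arrays of 1 kind correlated at 0.214 to 0.795 over probes, except the 3 arrays of water at 1 h against water at 2 h, at -0.291 to 0.166. Those arrays measured water at 2 h minus 1 h directly. They also lay on the link from the groups at 1 h to the groups at 2 h. Other comparisons took them in through the closure of the loop and the dye term.

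Of 150 tests, 25 for each of the 6 probes, 19 were called, 16 with a positive and 3 with a negative difference. NOD33, with 3 probes, held 12 of the calls and ENOD40B, with 2 probes, held 7, while UR9, with 1 probe, had 0. Calls that share an RNA group, such as atrazine at 8 h, are not separate results. The share of all probes called ran from 0% to 33.3% by comparison and is given with the member counts below. The NOD33 calls concerned atrazine at 4 and 8 h, and the 2 ENOD40B probes differed: probe 1 was called under atrazine at 8 h and probe 2 under bentazon at 2 and 4 h.

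**Figure D1:**
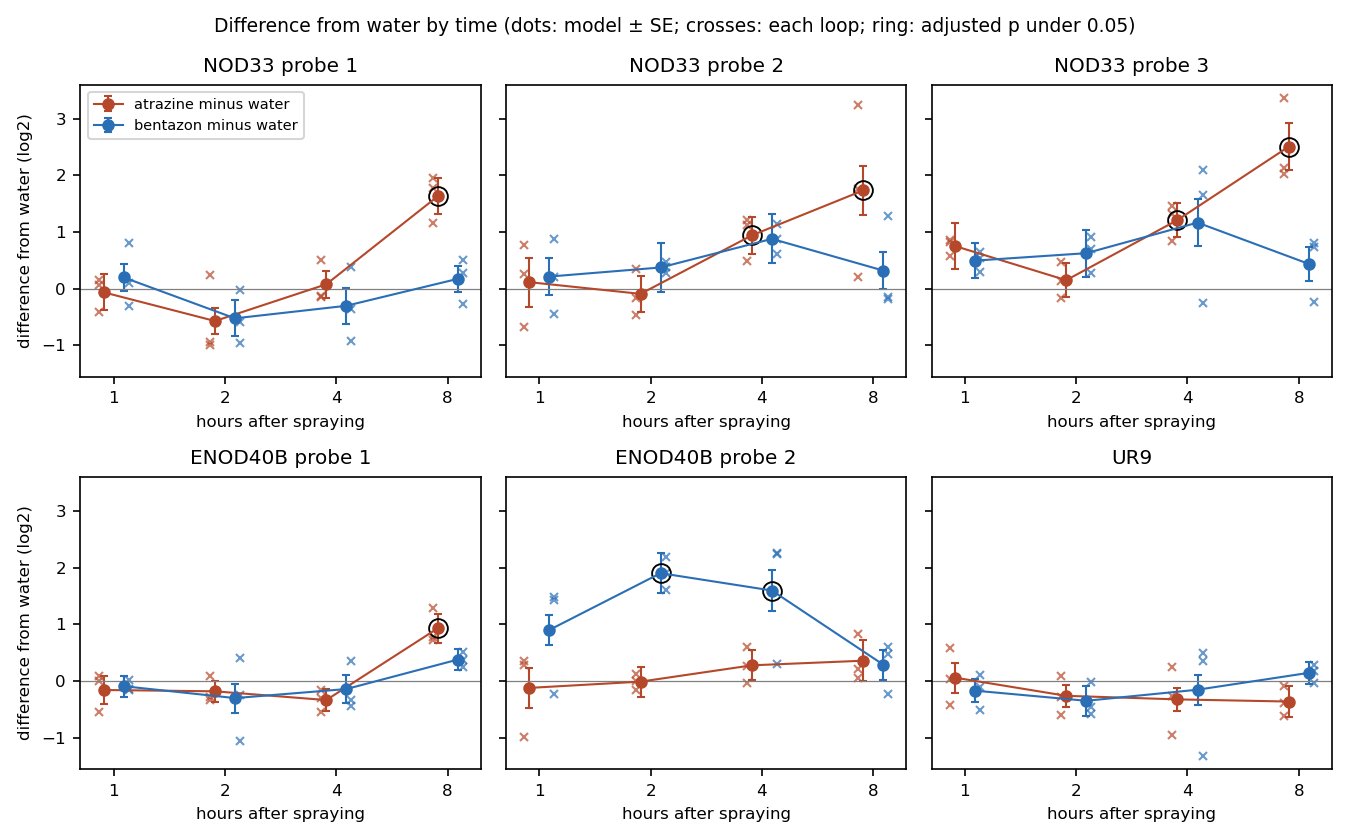
Difference from water (log2, vertical axis) against hours after spraying for the 6 probes, with dots for the model value ± SE, crosses for the 3 replicate loops and rings for adjusted p under 0.05. All 3 NOD33 probes are ringed under atrazine at 8 h, ENOD40B probe 1 is ringed only there, ENOD40B probe 2 is ringed under bentazon at 2 and 4 h, and UR9 has no ring.

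NOD33 under atrazine was above water at 8 h with all 3 probes and at 4 h with probes 2 and 3. At 8 h probe 1 stood at 1.16, 1.95 and 1.77 in the 3 replicates, all above 0, and the model gave 1.63 ± 0.318, a ratio of 3.09 (limma adjusted p = 0.000631). Probe 2 stood at 0.21, 3.24 and 1.76, so that all were above 0 but the spread was wide, with a model value of 1.74 ± 0.434 (limma adjusted p = 0.00671). Probe 3 stood at 2.03, 2.13 and 3.37, all above 2, with 2.51 ± 0.412 and a ratio of 5.70 (limma adjusted p = 8.65e-05). Without replicate 2, probe 2 was at 0.98 with an adjusted p of 0.272, and it was lost as a call; probes 1 and 3 were called whichever replicate was left out.

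At 4 h under atrazine the 3 arrays of atrazine against water gave 1.13, 1.32 and 0.28 for NOD33 probe 2 and 1.28, 0.71 and 1.42 for probe 3, all positive. The same arrays gave 0.57, -0.26 and -0.24 for probe 1, on both sides of 0. The model values were 0.94 ± 0.322 for probe 2 (limma adjusted p = 0.0389) and 1.21 ± 0.305 for probe 3 (limma adjusted p = 0.00495). Probe 1 was at 0.08 ± 0.236 and was not called. Leaving out replicate 1 ended the call of probe 3 (adjusted p = 0.145), and leaving out replicate 1 or 2 ended that of probe 2 (adjusted p = 0.283 and 0.162). At 1 h the 3 probes were at -0.06, 0.11 and 0.75, and at 2 h they were at -0.57, -0.09 and 0.15, none of them called.

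Under bentazon no NOD33 probe was called against water at any time. The highest values were at 4 h, where probe 3 was at 1.17 ± 0.412 (limma adjusted p = 0.0563) and probe 2 at 0.88 ± 0.434 (limma adjusted p = 0.191), while probe 1 was at -0.30 ± 0.318. The replicates of probe 3 there were 1.66, -0.26 and 2.10, so replicate 2 stood apart from the other two; without it the value was 1.88 with an adjusted p of 0.00777. At 8 h the 3 probes were at 0.17, 0.32 and 0.44, with 95% intervals that together ran from -0.34 to 1.06.

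In the model of all arrays the herbicides differed at 8 h for each NOD33 probe. Arrays of bentazon against atrazine gave -1.36, -1.57 and -1.60 for probe 1, a narrow range. They gave -0.38, -1.86 and -2.10 for probe 2 and -2.31, -1.53 and -2.61 for probe 3. Each value had the sign of more signal with atrazine. The 3 probes were read on the same 3 arrays and are not separate replicates. Atrazine minus bentazon was 1.46 ± 0.236, 1.42 ± 0.322 and 2.07 ± 0.305 for probes 1, 2 and 3 (limma adjusted p = 0.000114, 0.00572 and 4.46e-05). From the direct arrays alone none of these 3 calls stood (adjusted p = 0.0648, 0.179 and 0.0673, at 1.51, 1.45 and 2.15), in a fit that called 0 of all probes by limma with 2713 at an unadjusted p under 0.05, and solving each loop alone ended them too (adjusted p = 0.0722, 0.194 and 0.0795). Probe 2 was also lost without replicate 2 (adjusted p = 0.078) or replicate 3 (adjusted p = 0.0722), and array weights moved it to 0.79, still called. At 1, 2 and 4 h the difference between herbicides lay between -0.48 and 0.38 and was not called for any NOD33 probe.

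**Figure D2:**
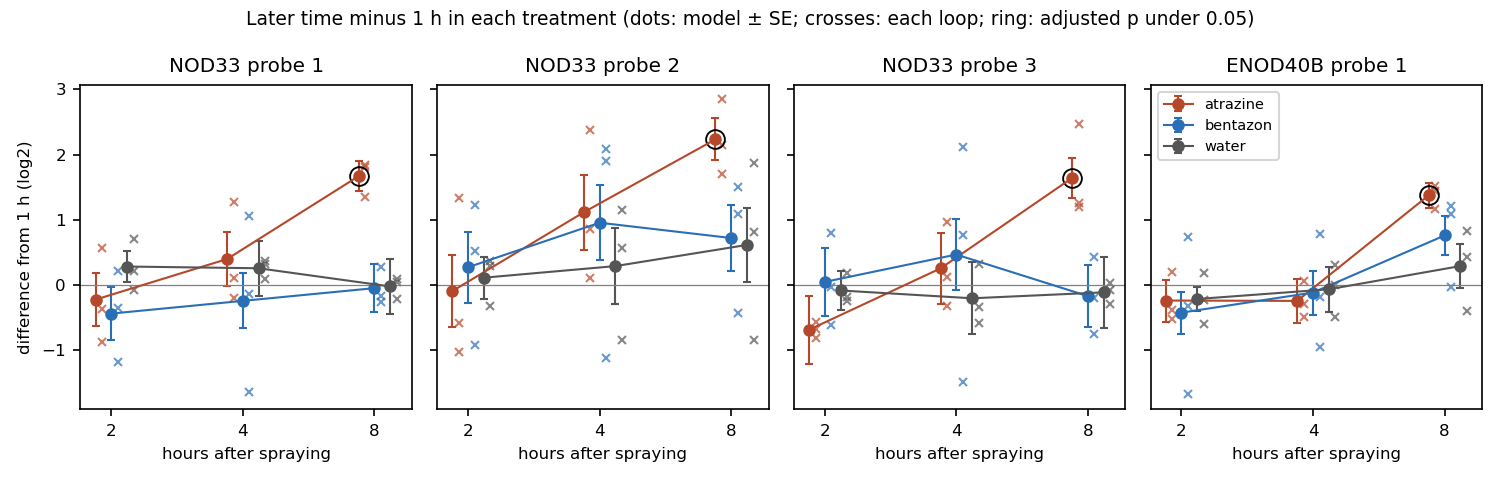
Difference from 1 h (log2, vertical axis) at 2, 4 and 8 h (horizontal axis) within atrazine, bentazon and water for the NOD33 probes and ENOD40B probe 1, with dots for the model value ± SE, crosses for the 3 replicate loops and rings for adjusted p under 0.05. The ringed points are those of atrazine at 8 h, from 1.38 to 2.23.

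Within atrazine, NOD33 at 8 h stood above 1 h. Arrays of atrazine at 8 h against atrazine at 1 h gave 1.43, 1.72 and 1.71 for probe 1, 1.71, 2.24 and 2.65 for probe 2, and 1.15, 1.13 and 2.41 for probe 3. These values, of 3 probes on the same 3 arrays, were all above 1. The model differences were 1.67 ± 0.236, 2.23 ± 0.322 and 1.64 ± 0.305 (limma adjusted p = 1.55e-06, 2.17e-06 and 8.15e-05). Between 8 and 1 h the same probes were at -0.05, 0.72 and -0.17 under bentazon and at -0.02, 0.61 and -0.12 under water, with none called. These atrazine comparisons share the atrazine samples at 8 h with the comparisons against water and against bentazon, so they are not separate observations of that group. The change in the difference from water between 1 and 8 h was itself tested: it was 1.69 ± 0.402 for probe 1 (limma adjusted p = 0.0136), 1.62 ± 0.549 for probe 2 (limma adjusted p = 0.0981) and 1.76 ± 0.521 for probe 3 (limma adjusted p = 0.0535). The call of probe 1 was lost whichever replicate was left out, at adjusted p of 0.0598, 0.115 and 0.0896.

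The NOD33 probes shared their highest group, atrazine at 8 h, but not every difference. Over the 12 group estimates, which share arrays, the Pearson correlation was 0.776 between probes 1 and 2, 0.74 between probes 1 and 3 and 0.856 between probes 2 and 3; the rank correlations were lower, at 0.413, 0.119 and 0.587. The intervals between probes that follow are not adjusted for the number of comparisons. By such intervals probes 2 and 3 were not told apart in any comparison. Probe 3 exceeded probe 1 in atrazine minus water at every time. The excess was 0.82 (95% interval 0.007 to 1.63) at 1 h, 0.72 (0.12 to 1.32) at 2 h, 1.14 (0.53 to 1.74) at 4 h and 0.88 (0.07 to 1.69) at 8 h. Probe 2 exceeded probe 1 there by 0.86 (0.25 to 1.48) at 4 h. In bentazon minus water at 2 h, probe 3 exceeded probe 1 by 1.15 (0.34 to 1.96) and probe 2 exceeded it by 0.90 (0.07 to 1.73). In bentazon minus water at 4 h, probe 3 exceeded probe 1 by 1.47 (0.66 to 2.28) and probe 2 exceeded it by 1.18 (0.35 to 2.01). At 8 h under atrazine probes 1 and 2 differed by 0.11 (-0.72 to 0.94), an interval wide enough to hold a difference of up to 0.94.

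ENOD40B probe 1 was called against water in 1 comparison, atrazine at 8 h. In atrazine minus water at 8 h its replicates were 0.73, 1.28 and 0.77, all above 0, and the model value was 0.93 ± 0.255, a ratio of 1.90 (limma adjusted p = 0.0143). This call was lost without replicate 1 (adjusted p = 0.153) or without replicate 2 (adjusted p = 0.137). At 1, 2 and 4 h the values under atrazine were -0.16, -0.18 and -0.34, none called. Atrazine at 8 h stood 1.38 ± 0.189 above atrazine at 1 h (limma adjusted p = 1e-06), with 1.17, 1.44 and 1.52 in the replicates.

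Under bentazon, ENOD40B probe 1 ranged from -0.30 to 0.38 against water and was not called at any time. At 8 h bentazon stood 0.76 ± 0.296 above bentazon at 1 h (limma adjusted p = 0.0857). The difference of atrazine and bentazon at 8 h was 0.55 ± 0.189 (limma adjusted p = 0.0786), with a 95% interval of 0.17 to 0.94. The change of the atrazine difference from 1 to 8 h was 1.09 ± 0.323 (limma adjusted p = 0.0535).

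ENOD40B probe 2 showed bentazon above water at 2 and 4 h. At 2 h its replicates were 2.19, 1.91 and 1.61, close together and all above 1, with 1.90 ± 0.358 in the model, a ratio of 3.74 (limma adjusted p = 0.000533). At 4 h they were 2.25, 2.24 and 0.30, so replicate 3 lay well under the other two, with 1.60 ± 0.358 (limma adjusted p = 0.00263). At 1 h they were 1.49, -0.22 and 1.43, with replicate 2 on the other side of 0, and 0.90 ± 0.265 missed the threshold (limma adjusted p = 0.0539). By 8 h the difference was 0.29 ± 0.265 and was not called. Leaving out replicate 1 ended the calls at 2 h (2.05, adjusted p = 0.0724) and 4 h (1.27, adjusted p = 0.2), and leaving out replicate 2 brought a call at 1 h (adjusted p = 0.00415).

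Atrazine left ENOD40B probe 2 uncalled against water, at -0.12, -0.01, 0.28 and 0.36 from 1 to 8 h. In the model it differed between the herbicides at 1, 2 and 4 h. Arrays of atrazine against bentazon gave -1.07, -0.83 and -1.08 at 1 h and -2.29, -1.84 and -1.52 at 2 h, all negative. Arrays of bentazon against atrazine gave 1.72, 1.92 and 0.42 at 4 h, all positive. Atrazine minus bentazon was -1.02 ± 0.265 at 1 h, -1.92 ± 0.265 at 2 h and -1.32 ± 0.265 at 4 h (limma adjusted p = 0.0157, 4.91e-06 and 0.000968), and 0.07 ± 0.265 at 8 h (limma adjusted p = 0.925). The call at 1 h ended without replicate 1 (adjusted p = 0.206) or replicate 3 (adjusted p = 0.0506), and that at 4 h ended without replicate 1 (adjusted p = 0.0978) and from the direct arrays alone (adjusted p = 0.0789). With each loop solved alone both ended (adjusted p = 0.0547 and 0.119), while the call at 2 h was kept. Change with time within a treatment was not called for this probe; bentazon at 2 h minus 1 h was 1.51 ± 0.452 (limma adjusted p = 0.529).

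**Figure D3:**
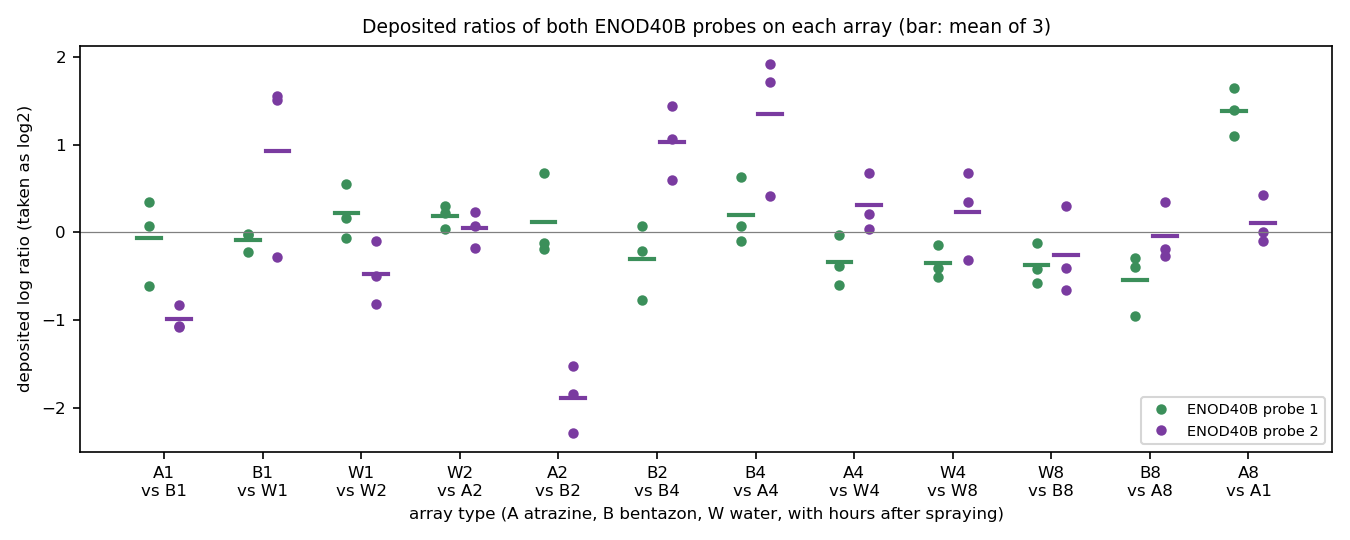
Deposited log ratio (taken as log2, vertical axis) of both ENOD40B probes on each of the 36 arrays, by array type (A atrazine, B bentazon, W water, with hours; first-named over second-named RNA), with a bar at the mean of 3 arrays. Probe 2 departs most from 0 on arrays of atrazine against bentazon at 2 h, at -2.29, -1.84 and -1.52, and probe 1 on arrays of atrazine at 8 h against 1 h.

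The 2 ENOD40B probes, both annotated to the same gene, gave differences from water whose intervals of difference excluded 0 at 1, 2 and 4 h under bentazon. Probe 2 exceeded probe 1 in bentazon minus water by 0.99 (95% interval 0.25 to 1.74) at 1 h, by 2.21 (1.21 to 3.21) at 2 h and by 1.74 (0.74 to 2.74) at 4 h. In atrazine minus bentazon at 2 h the probes differed by -2.04 (-2.78 to -1.29). At 8 h in atrazine minus water their difference was -0.57 (-1.57 to 0.43). In atrazine at 8 h minus 1 h it was -1.30 (-2.04 to -0.56), with probe 1 at 1.38 and probe 2 at 0.08. In bentazon at 8 h minus 1 h it was -1.77 (-2.94 to -0.61). Over the 12 group estimates the probes correlated at -0.498 (Pearson) and -0.657 (rank). The labels and annotation used here do not say which of the probes represents ENOD40B, and a call for the gene as a whole is not given. Spotted cDNA can also bind transcripts of related genes, and the part of that in the difference was not tested; the probe of N-36A, another early nodulin gene, had values on only 17 arrays and was not tested.

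UR9 was not called in any comparison. Its 8 differences from water lay between -0.36 and 0.14, and their 95% intervals between -0.91 and 0.60, with a smallest adjusted p of 0.278 (limma) and 0 of 8 unadjusted p-values under 0.05. At 8 h the replicates of atrazine minus water were -0.62, -0.38 and -0.09, all negative, and the model value was -0.36 ± 0.267. Those of bentazon minus water were -0.04, 0.28 and 0.18, with 0.14 ± 0.198. Over all 25 comparisons the values ran from -0.51 to 0.74, and 2 had an unadjusted p under 0.05: atrazine minus bentazon at 8 h, at -0.51 ± 0.198 (limma adjusted p = 0.131), and bentazon at 8 h minus 1 h, at 0.74 ± 0.310 (limma adjusted p = 0.112). The residual SD of UR9 was 0.351, against 0.33 to 0.633 for the other 5 probes.

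The calls on the members are to be read against how often any probe was called. In atrazine minus water 0, 0, 2 and 4 of the 6 members were called at 1, 2, 4 and 8 h, where 3.4%, 5.24%, 17.9% and 11.7% of all tested probes were. In bentazon minus water 0, 1, 1 and 0 members were called, against 3.35%, 7.58%, 13.4% and 16.3% of all probes. In atrazine minus bentazon 1, 1, 1 and 3 members were called, against 5.84%, 9.62%, 10.8% and 6.25%. The median difference of the 6 members in atrazine minus water at 8 h was 1.28, beside 0.03 over all probes; 3 of the 6 are probes of NOD33 and are not independent genes.

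Over time, 4 of 6 members were called in atrazine at 8 h minus 1 h, a comparison in which 33.3% of all probes were called, and 0 of 6 at 4 h minus 1 h, where 1.3% were. In bentazon 0 of 6 were called at 4 h (0.211% of all probes) and at 8 h (13.9%), and in water 0 of 6 at 8 h (1.68%). By limma, the main model called no probe at all (0%) at 2 h minus 1 h or in water at 4 h minus 1 h. There 1377 (atrazine), 1116 (bentazon), 628 (water at 2 h) and 855 (water at 4 h) probes had an unadjusted p under 0.05. These zeros depended on the setting. Without the arrays of water at 1 h against 2 h and the dye term, 61, 20, 253 and 6 probes were called, in the same order. That alternative was chosen after seeing the data. With array weights 115, 3, 1 and 0 were called. For the change of the difference from water since 1 h, 1 member was called under atrazine at 8 h (3.58% of all probes), and 0 under atrazine at 4 h (0.821%), bentazon at 4 h (0.563%) and bentazon at 8 h (4.99%).

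Other genes of nodulation and of nitrogen assimilation were read from 2 lists of gene names. Of the other nodulin and symbiosis genes, NARK and sucrose synthase (SS) had 4 tested probes between them. NARK, a receptor kinase that acts in the shoot to limit nodule number, was below water under both herbicides: its differences under atrazine were -0.82 at 2 h, -0.87 at 4 h and -0.85 at 8 h (limma adjusted p = 0.00878, 0.00166 and 0.0292). Under bentazon they were -1.17, -0.90 and -0.81 at the same times (limma adjusted p = 0.00372, 0.0194 and 0.00484). At 1 h it was at -0.90 and -0.62 and missed the threshold (limma adjusted p = 0.0506 and 0.0768). Leaving out replicate 1 or replicate 2 ended each of the 6 NARK calls, and leaving out replicate 3 ended that under atrazine at 2 h, while the values stayed negative, from -0.60 to -1.33. None of the 3 SS probes was called; under atrazine at 8 h they were at -0.53, 0.46 and -0.54. The median of the 4 probes was -0.54 in atrazine minus water at 8 h.

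The ureide and nitrogen assimilation list held 22 tested probes of 9 genes. In atrazine minus water 0, 2, 2 and 3 probes were called positive and 0 negative at 1, 2, 4 and 8 h, and in bentazon minus water 0 were called at 1 and 2 h, 1 negative at 4 h and 1 positive at 8 h. The shares of all probes called in either direction were 3.4%, 5.24%, 17.9% and 11.7% under atrazine and 3.35%, 7.58%, 13.4% and 16.3% under bentazon, so 3 of 22 at 8 h under atrazine was near the background and the list is given as a description. The bentazon calls were PEPC17, a phosphoenolpyruvate carboxylase gene, at -1.30 (limma adjusted p = 0.0348; lost without replicate 1 or 2) and the third IMPDH1 probe at 0.71 (limma adjusted p = 0.0294; lost without replicate 1 or 2). At 8 h under atrazine the called probes were 2 of IMPDH1, which encodes IMP dehydrogenase of purine synthesis, at 0.81 and 0.95 (limma adjusted p = 0.0263 and 0.00826), and 1 of GS1GAMMA2, a cytosolic glutamine synthetase, at 0.99 (limma adjusted p = 0.00512). In atrazine minus bentazon 0, 1, 3 and 3 probes were called positive and 1, 1, 2 and 0 negative at 1, 2, 4 and 8 h. The shares of all probes called there in either direction were 5.84%, 9.62%, 10.8% and 6.25%. The negative calls were PEPC16 at -1.09 (1 h) and -0.72 (4 h) and PEPC7 at -0.60 (2 h) and -0.62 (4 h), both phosphoenolpyruvate carboxylase genes (limma adjusted p = 0.00107, 0.024, 0.0245 and 0.0185). The positive calls were GS1GAMMA2 at 0.57, 0.67 and 1.00 at 2, 4 and 8 h, 2 ASP1 probes at 1.41 and 1.17 at 4 h, and 2 IMPDH1 probes at 0.68 and 0.74 at 8 h. The remaining probes of ASP1 and IMPDH1 were not called there. Of these 11 calls, those of PEPC16 at 1 h, without replicate 2, and of the other genes and times, without replicate 1, were lost, except GS1GAMMA2 at 8 h (limma adjusted p = 0.000341), which was called whichever replicate was left out. In atrazine minus water at 2 and 4 h the called probes were 2 of ASP1, at 1.11 and 0.82 and then at 0.97 and 1.05. The other ASP1 probes were at -0.02, 0.49 and -0.21 at 2 h and at -0.37, 0.28 and -0.07 at 4 h. None of those was called, so the probes of this gene did not share the rise. Against water, leaving out replicate 1 ended each of the 7 calls under atrazine, with IMPDH1 at 0.39 for the first of its probes, which was at 0.19 without the arrays of water at 1 against 2 h and the dye term. The list's median in atrazine minus water at 8 h was 0.36, beside 0.03 over all probes.

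**Figure D4:**
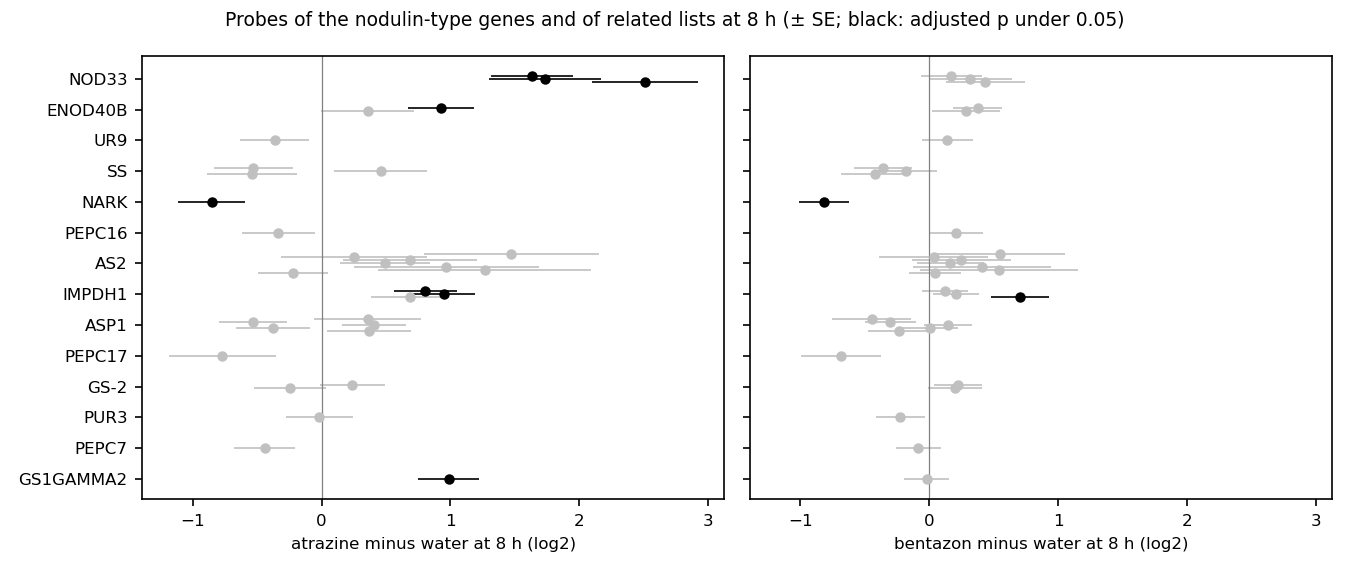
Difference from water at 8 h (log2, horizontal axis) ± SE for each tested probe of the nodulin-type genes and of both lists (one line of points per gene), under atrazine (left) and bentazon (right), black where the adjusted p was under 0.05. The 3 NOD33 probes, from 1.63 to 2.51, lie farthest to the right under atrazine, and NARK is black and negative in both panels.

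Among 543 probes of other single named genes with a value on all arrays, the likeness of the 12 group estimates was measured by Pearson's correlation, as a description over groups that share arrays. NOD33 probe 1 was most like WIN (0.843), GS1GAMMA2 (0.827) and the histone gene H4 (0.818). Its estimate was 1.43 in atrazine at 8 h and 0.15 in the next highest group, relative to the mean of the groups. A Pearson correlation can then rest largely on 1 group, and no rank correlation was taken for this likeness. NOD33 probe 2 was most like CHR1 (0.92), IMPDH1 (0.914) and SFR2 (0.875), and probe 3 was most like DGAT1b (0.851), DR1 (0.848) and GM2S-1 (0.84). No gene stood among the nearest 3 of more than 1 NOD33 probe. ENOD40B probe 1 was most like GDH1 (0.913) and the ribosomal protein genes RPL37 (0.908) and RPS6 (0.895). ENOD40B probe 2 was most like the transcription factor genes WRKY13 (0.959) and NAC2 (0.928) and AAT (0.92). UR9 was most like CDC48 (0.811), EF1BGAMMA4 (0.802) and SCAM-2 (0.797), in a profile that held no called difference.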

How the data were processed

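Two-colour cDNA arrays compared leaflet RNA pairwise in a loop of 12 array types, each with 3 replicates. The deposited values are log ratios per probe, taken as log2; per the labels, RNA was extracted with Trizol and labelled through aminoallyl-dUTP, the first-named RNA with Cy3. Array medians of -0.047 to 0.0464 show values already centred; the sources used here state neither scanner, normalization, log base and numerator nor how technical repeats were combined. Arrays held 16648 to 18484 values, and their number limits the precision.

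Probes with values on at least 2 arrays of every type were kept (17062, of which 12843 complete). A linear model with 11 RNA differences and 1 dye term was fitted to all 36 arrays for 25 comparisons (R 4.3.3, limma 3.58.1 variance moderation; figures, Python 3.11.15 with matplotlib 3.10.9). It was tested on simulated data. Intervals are at 95%. P-values of the main model rest on the scatter of arrays around it, which mixes variation between arrays with variation between samples. That model treats the arrays as independent, although each RNA group lay on more than 1 kind of array. Differences between probes were compared array by array, an addition made after their values were seen. Their intervals are not adjusted for the number of comparisons. Named genes were the members, the 3 most alike per probe, and list genes with a call. The members and lists were chosen with earlier results of these data known, N-36A and SS after gene names were seen. No block was used, since the labels give no shared day or plant for a replicate number. Deviations of same-numbered arrays without a shared RNA correlated at a median of 0.0104 (-0.431 to 0.453). These had either sign, so the median cannot show that arrays of 1 replicate number are independent. Alternatives left out each replicate, added a replicate block, dropped the dye term, scaled, centred or weighted arrays, moderated variances robustly, used complete probes, a random extract effect, each loop alone or direct arrays.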

Additional observations from a re-analysis of the deposited data

Results flagged for a closer look

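The difference of NOD33 probe 1 between atrazine and water at 8 h, less the same difference at 1 h, was 1.694 ± 0.402 on the log2 scale, which passed the test of that difference itself (limma adjusted p = 0.0136). The replicates gave 1.57, 1.80 and 1.71, all above 1. The call was lost without replicate 1, 2 or 3 (adjusted p = 0.0598, 0.115 and 0.0896). Probes 2 and 3 were at 1.62 and 1.76 and did not pass.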

How the results depend on the processing

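14 other settings were tried, and no difference of the members turned its sign where it was called. The replicate block kept 19 of 19 calls and added 0, with NOD33 probe 1 in atrazine minus water at 8 h at 1.63. Leaving out replicate 1, 2 or 3 kept 11, 14 and 16 calls, solving each loop alone kept 12, array weights kept 19 and added 14, and direct arrays kept 8 of 12. The other calls had no direct arrays and could not be checked that way. Among them were those against water under atrazine at 8 h and under bentazon at 2 and 4 h. NOD33 probes 1 and 3 in atrazine minus water at 8 h kept their calls in 13 settings, at 1.47 to 1.86 and 2.08 to 2.75. Leaving out 1 replicate at a time, NOD33 probe 2 in atrazine minus water was at 0.80 to 1.17 at 4 h and 0.98 to 2.50 at 8 h, and probe 3 at 4 h at 1.09 to 1.40. ENOD40B probe 1 in atrazine minus water at 8 h was then at 0.75 to 1.03, and probe 2 in bentazon minus water at 1.76 to 2.05 at 2 h and 1.27 to 2.25 at 4 h. NOD33 probe 2 at 4 h also lost its call with arrays scaled (0.88) and, in an alternative chosen after seeing the data, without the arrays of water at 1 against 2 h and the dye term (0.91). Solving each loop alone ended 7 calls: the 8 h calls against water of NOD33 probe 2 (1.74) and ENOD40B probe 1 (0.93), atrazine minus bentazon at 8 h for all 3 NOD33 probes, and at 1 and 4 h for ENOD40B probe 2. Direct arrays alone ended 4, those 3 of NOD33 and that of ENOD40B probe 2 at 4 h. The cause of these losses was not tested. Leaving out a replicate also left fewer arrays, and that was not separated from the influence of the replicate left out.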
